A study of Mus musculus with 2 samples.

Results

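Perilipins, CIDE proteins and droplet-bound lipase inhibitors are the proteins that coat the lipid droplet, enlarge it and hold back its breakdown. Their transcripts were read in the liver of Iah1-WT and Iah1-KO mice. The members were the 5 perilipins (Plin1 to Plin5), the 3 CIDE genes (Cidea, Cideb, Cidec) and 2 inhibitors of adipose triglyceride lipase (G0s2, Hilpda), taken wherever the platform annotation gave a probe set exactly 1 gene symbol. Of these 10 genes, 9 were measured, by 10 probe sets, among 22180 genes on the array. The probe set that lists Cideb lists another gene as well, so Cideb was not analysed here.

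Both groups were male mice given a standard chow up to 6 weeks of age and then a high-fat diet for 12 weeks, housed singly, and deprived of food for 4 hours before the early-afternoon collection of liver. The KO group lacked Iah1, which encodes a homologue of a yeast isoamyl acetate hydrolase, in the whole body. The strain was not given in the sources used here. Each group was 1 Affymetrix array carrying RNA pooled from 3 mice, so no value below has a replicate error and no test of the genotypes was possible. Values are RMA log2 intensities, and every difference is KO minus WT on that scale. A value is set against the same gene's value in the other array and not against other genes, since probes differ in brightness per molecule.

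The targeted gene matched the labels, with Iah1 at 8.59 in WT and 3.90 in KO, the latter under the intensity filter of 4.68. That filter is the median, over all genes, of the higher of a gene's pair of values, and 11090 genes reached it. Defining hepatocyte genes were bright in both arrays, for example Alb, the albumin gene, at 13.30 in WT and 13.28 in KO.

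Droplet proteins act in an ordered way. Perilipins shield the triglyceride core from lipases, CIDE proteins transfer lipid between touching droplets so that they grow, and G0s2 and Hilpda bind Pnpla2, the lipase that starts triglyceride breakdown. In hepatocytes Plin2 is the usual coat, while Plin1, Plin4, Cidea and Cidec are best known from adipocytes and appear in fatty liver. Several of these genes are targets of PPAR transcription factors, which bind a repeat of the half-site AGGTCA, and Hilpda is a target of hypoxia-inducible factors, whose core sites are ACGTG and its variant GCGTG.

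The sequences upstream of 4 members are shown for the results below. Plin4 and Plin5 are adjacent genes with differences of like size, Plin2 is the main hepatocyte coat, and Hilpda is the hypoxia-responsive inhibitor. Each is the 250 bases before a RefSeq start site, 5′ to 3′ on the gene's strand. Plin5 and Hilpda have 2 start sites each in the RefSeq table, and the site whose window holds more matches is shown. Capitals mark matches on either strand to the half-site AGGTCA, to the hypoxia core in its form ACGTG or its form GCGTG, or to the tandem of 2 half-sites spaced by 1 base of any kind, with up to 2 mismatches. The tandem overlaps the half-site, and ACGTG can lie inside the E-box CACGTG.

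Plin2, GRCm38.p6 chr4:86670060-86670309, minus strand: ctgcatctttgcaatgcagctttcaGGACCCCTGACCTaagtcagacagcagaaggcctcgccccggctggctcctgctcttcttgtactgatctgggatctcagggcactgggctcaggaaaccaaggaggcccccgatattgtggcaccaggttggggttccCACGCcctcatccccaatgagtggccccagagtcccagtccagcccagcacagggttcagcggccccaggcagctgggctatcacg
Plin4, GRCm38.p6 chr17:56109783-56110032, minus strand: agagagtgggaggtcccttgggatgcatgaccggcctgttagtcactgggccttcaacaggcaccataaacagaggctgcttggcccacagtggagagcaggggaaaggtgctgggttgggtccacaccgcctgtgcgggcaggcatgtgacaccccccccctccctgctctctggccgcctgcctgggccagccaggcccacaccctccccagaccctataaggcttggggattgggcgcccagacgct
Plin5, GRCm38.p6 chr17:56117549-56117798, minus strand: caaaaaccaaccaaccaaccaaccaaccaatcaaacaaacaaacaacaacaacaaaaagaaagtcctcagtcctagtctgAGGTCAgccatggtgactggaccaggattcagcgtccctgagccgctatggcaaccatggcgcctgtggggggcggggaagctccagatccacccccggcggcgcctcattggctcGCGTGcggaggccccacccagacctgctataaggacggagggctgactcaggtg
Hilpda, GRCm38.p6 chr6:29272376-29272625, plus strand: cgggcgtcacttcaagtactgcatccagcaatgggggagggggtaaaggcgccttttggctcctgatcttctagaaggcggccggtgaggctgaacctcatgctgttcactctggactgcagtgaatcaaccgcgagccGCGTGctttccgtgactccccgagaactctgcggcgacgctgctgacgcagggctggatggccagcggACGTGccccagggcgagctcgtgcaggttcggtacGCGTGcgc

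Over the 32851 windows of this length in the RefSeq table, 14% held AGGTCA, 3.24% the tandem with up to 2 mismatches, 16.6% ACGTG and 28.2% GCGTG. For the members, 9 genes with 12 windows were searched, without Cidea. The half-site AGGTCA lay in 2 of the 12 windows (Plin2 and Plin5), the tandem in 1 (Plin2), ACGTG in 1 (Hilpda) and GCGTG in 6. The Plin2 tandem spans 225 to 213 bases before the start, the Plin5 half-site 170 to 165. The window of the other Plin5 start site held no AGGTCA. Hilpda has ACGTG at 43 to 39 bases and GCGTG at 111 to 107 and at 8 to 4 bases before the start site shown, and the window of its other start site held no match. The Plin4 window held no match. A match describes the letters only and is not a bound site.

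None of the 8 members that reached the filter differed by 1.5-fold (0.58 on the log2 scale) or more in either direction. Among all 11090 genes compared, 1.47% were higher and 2.45% lower in KO at that fold. The count of 0 among 8 genes is therefore near the background. The members' differences ran from -0.28 to 0.38, with 4 above 0 and 4 below 0 and a median of 0.02. Over all genes compared the median was -0.02 and 44.3% lay above 0. At a smaller threshold of 0.32 on the log2 scale, Cidea was the member reached, against 6.62% of genes higher and 10.4% lower.

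**Figure D1:**
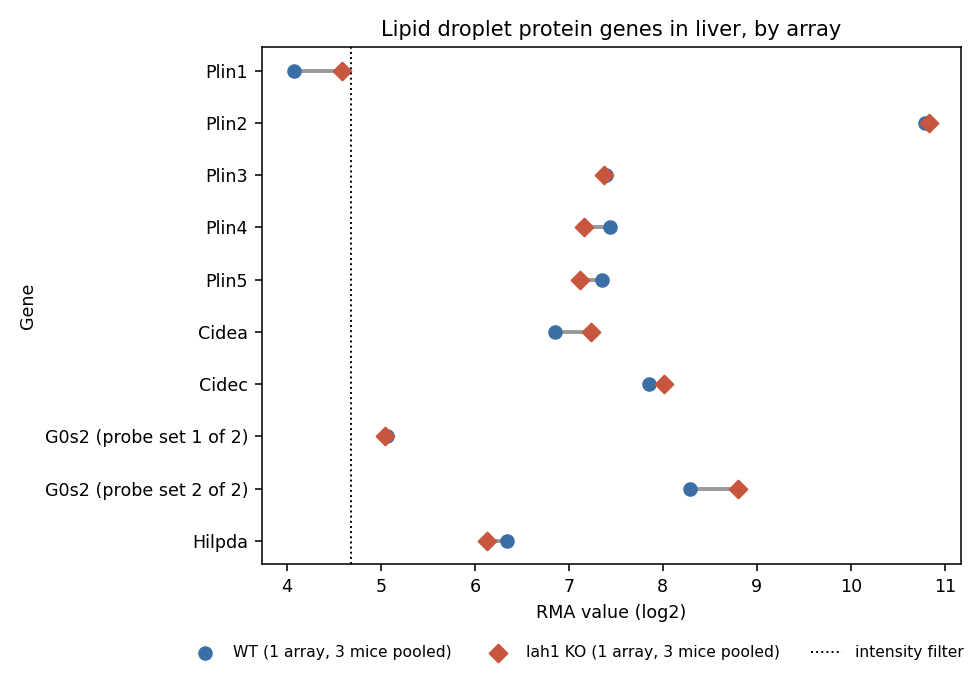
RMA log2 value (horizontal axis) of each member probe set (rows) in the WT array (blue circles) and the Iah1 KO array (red diamonds), each 1 array of 3 pooled mice, with the intensity filter of 4.68 as a dotted line. The KO symbol lies right of WT for Plin1 (both under the filter), Cidea, Cidec and the second G0s2 probe set, left of it for Plin4, Plin5 and Hilpda, and almost on it for Plin2, Plin3 and the first G0s2 probe set. Positions are not comparable between genes.

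Single differences were read against genes of like brightness, in 4 equal groups by mean signal. The standard deviation of the differences was 0.36 in the dimmest group, then 0.28, 0.20 and 0.16. By that measure 5 of the 8 members lay 1 standard deviation or more from 0, as did 26.1% of all genes compared. These were Cidea, Plin4, G0s2, Plin5 and Cidec, and they point both ways. Cidec, Plin5 and G0s2 were close to that limit, at 1.05, -1.16 and 1.20 standard deviations. G0s2 enters as the mean of 2 probe sets that differ. Its group runs from 6.44 to 7.62 in mean signal, and its probe sets lie above and below that range. Its 1.20 therefore compares neither probe set with genes of like brightness. The count of 5 members was not repeated under the other processing settings.

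Among the perilipins, Plin2 was nearly the same in both arrays. It encodes the ubiquitous coat protein of hepatocyte droplets, whose amount follows stored lipid in many cells. It stood at 10.78 in WT and 10.83 in KO, differing by 0.05 or a KO-to-WT ratio of 1.04. In the brightest group of genes, 66.6% had a difference of at least that size.

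Plin3, which encodes a coat protein that moves between cytosol and nascent droplets, was at 7.40 in WT and 7.38 in KO. Its difference of -0.02 was the smallest of the members and became 0.01, 0.02 and 0.02 when the median was subtracted, when quantile normalization was repeated and after a loess fit. It has no settled sign.

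Plin4 and Plin5 had the most negative differences of the perilipins. Plin4, a coat protein with a long run of amphipathic repeats, was at 7.44 in WT and 7.16 in KO. That is a difference of -0.28 and a ratio of 0.822, and 13.7% of the genes of its brightness group differed by at least as much. Plin5, the coat protein of oxidative tissues that ties droplets to mitochondria, was at 7.35 in WT and 7.12 in KO. Its difference of -0.23 is a ratio of 0.851, matched or exceeded by 22% of its group.

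Plin1, the adipocyte perilipin that controls hormone-driven lipolysis, lay under the filter in both arrays, at 4.07 in WT and 4.59 in KO. Its RMA difference of 0.52 was therefore not counted. Genes characteristic of adipocytes were likewise dim. Adipoq (adiponectin) was at 3.67 and 3.73 in WT and KO, Retn (resistin) at 4.10 and 3.85, and Lep (leptin) at 3.51 and 3.56, all under the filter. Of 8 measured adipocyte markers, 4 passed it. They were Fabp4, Car3, Lipe and Cyp2e1, of which the last 3 are also hepatocyte genes, and none differed by 1.5-fold. Fabp4, a fatty acid carrier that endothelium and macrophages also make, read 7.54 in WT against 7.29 in KO.

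The measured CIDE genes were both above 0. Cidea, which drives droplet fusion and is induced in steatotic liver, was at 6.85 in WT and 7.23 in KO. Its difference of 0.38 was the largest of the members compared when the 2 G0s2 probe sets were averaged; with the brighter of them alone, G0s2 was larger, at 0.51. In its brightness group 6.71% of genes differed by at least as much. Cidec, the fusion protein also called FSP27 that yields large droplets, was at 7.85 in WT and 8.01 in KO. That is a difference of 0.17 and a ratio of 1.12, reached by 20.7% of the brightest genes.

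The lipase inhibitors lay on opposite sides of 0. Hilpda, the hypoxia-inducible inhibitor, was at 6.34 in WT and 6.12 in KO, differing by -0.22 and a ratio of 0.858. In its group 35.8% of genes differed as much or more. G0s2, a small inhibitor abundant in liver and fat, was at 6.68 in WT and 6.92 in KO as the mean of 2 probe sets, a difference of 0.24.

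The G0s2 probe sets did not give the same answer. The brighter read 8.29 in WT and 8.80 in KO, differing by 0.51 and a ratio of 1.42. The dimmer, close to the filter, read 5.07 in WT and 5.04 in KO, differing by -0.03. Their gap of 0.53 was matched or exceeded in 41 of 282 genes with 2 probe sets above the filter (14.5%), where the median gap was 0.24. Across the 321 genes with several such probe sets, the standard deviation of a single probe set's difference around its gene's mean was 0.26. That spread covers probes alone and neither mice nor labelling, and the other members compared had a single probe set each.

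**Figure D2:**
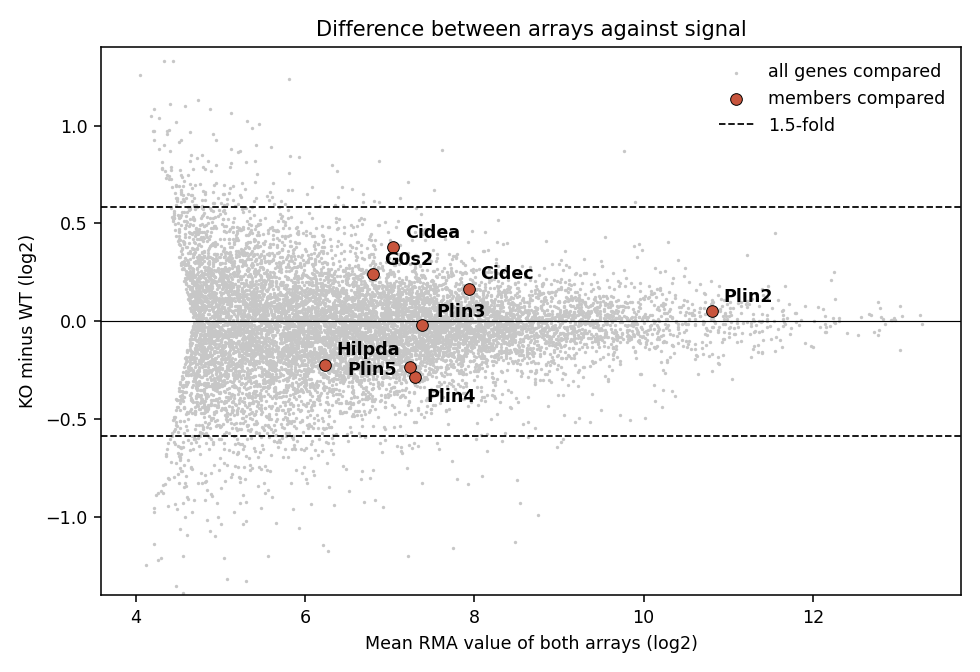
Difference between the arrays (KO minus WT, log2) against the mean RMA value (log2) for the 11090 genes compared (grey) and the 8 members compared (red), with dashed lines at 1.5-fold. All 8 members lie between the dashed lines, Cidea highest at 0.38 and Plin4 lowest at -0.28, and the grey cloud narrows as signal grows. Genes beyond 1.4 on the vertical axis (8) are not drawn.

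Plin4, Plin5 and Plin3 lie on chromosome 17, and RefSeq's annotation (GRCm38.p6) gave the order of genes there. Plin4 and Plin5 are direct neighbours, with no protein-coding gene between them, and 7 such genes separate Plin5 from Plin3. The differences were -0.28 for Plin4, -0.23 for Plin5 and -0.02 for Plin3. The next gene beyond Plin5 is Lrg1, which encodes a secreted leucine-rich glycoprotein, and it was at 9.26 in WT and 9.22 in KO, differing by -0.05. On the other side of Plin4, Hdgfl2 was at 7.15 in WT and 7.62 in KO, differing by 0.47 of the opposite sign. Of 13 other genes of the stretch that passed the filter, taken up to 4 genes beyond the outer perilipins, 7 lay above 0 and 6 below, with a median of 0.04.

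**Figure D3:**
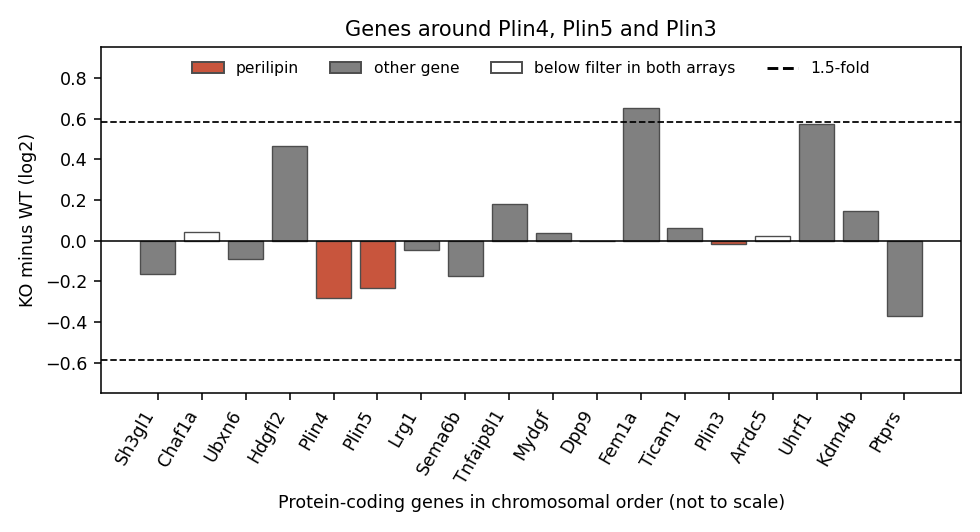
Difference between the arrays (KO minus WT, log2, vertical axis) for 18 protein-coding genes in chromosomal order around Plin4, Plin5 and Plin3 (red), other genes in grey, genes under the filter in white, and 1.5-fold as dashed lines. The adjacent Plin4 and Plin5 bars reach -0.28 and -0.23, Plin3 is near 0, and Fem1a passes the upper line at 0.65.

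Pnpla2 and Abhd5, the lipase and activator on which the members act, were close to 0. Among genes of lipolysis, 0 of 8 compared differed by 1.5-fold, 5 were above 0 and the median was 0.08. Pnpla2, the lipase that G0s2 and Hilpda inhibit, was at 7.98 in WT and 7.92 in KO, differing by -0.06. Abhd5, its activator, which perilipins hold until lipolysis is triggered, was at 7.12 and 7.21, a difference of 0.09. Lipe, the hormone-sensitive lipase gene, differed by 0.07 and Mgll, the monoacylglycerol lipase gene, by 0.15. The widest difference of the list was that of the carboxylesterase gene Ces1d, named after its value was seen, at 8.86 in WT and 9.18 in KO, or 0.31.

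Genes of droplet formation gave 0 of 10 past 1.5-fold, 6 above 0 and a median of 0.07. Bscl2, the gene of seipin, which organises droplet budding, differed by 0.01. The triglyceride-partitioning genes Fitm2 and Fitm1 differed by -0.08 and 0.21. Dgat2, which makes triglyceride at the droplet, was at 10.82 in WT and 10.95 in KO, differing by 0.13.

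Other proteins found on droplets gave 0 of 17 past 1.5-fold, 10 above 0 and a median of 0.01. Hsd17b13, a hepatocyte droplet enzyme, was at 10.99 in WT and 10.78 in KO, differing by -0.21. Its relative Hsd17b11 differed by -0.17, the small GTPase gene Rab18 by -0.04 and Aup1, a droplet protein of the ubiquitin system, by 0.01.

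Regulators of the members gave 0 of 12 past 1.5-fold, 5 above 0 and a median of -0.04. Ppara, the fatty acid sensor of the hepatocyte, was at 9.48 in WT and 9.50 in KO. Pparg, the adipogenic relative that drives several droplet genes in fatty liver, was at 7.22 in WT and 6.91 in KO, differing by -0.31. Ppargc1a, a coactivator, differed by 0.12 and Rxra, the partner receptor, by -0.06.

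Other PPAR-alpha targets gave 1 of 8 past 1.5-fold in the upward direction, 5 above 0 and a median of 0.05. That gene was the hormone gene Fgf21, at 4.70 in WT, barely above the filter, and 5.35 in KO. At that fold, 1.47% of all genes compared were higher. Fgf21 is in the dimmest group of genes, whose differences had a standard deviation of 0.36. Cpt1a, the entry step of mitochondrial fatty acid oxidation, differed by 0.14, Pdk4 by 0.08, Acot1 by 0.27 and Cyp4a14 by -0.10. Next to these, Plin2 at 0.05 was within the range of the list, which ran from -0.10 to 0.65, and Plin5 at -0.23 was below it. Brightness in the list ran from 4.70 (Fgf21) to 10.75 (Cyp4a14) in WT. The list's range is therefore no measure of spread at the brightness of Plin5.

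Hypoxia targets other than Hilpda gave 1 of 8 past 1.5-fold, in the downward direction, with 4 above 0 and a median of 0.00 (0.0011). The gene was Adm, the adrenomedullin gene, at 4.85 in WT and 3.91 in KO, which is at least 1.13-fold lower when the filter stands in for the KO value. Of all genes compared, 2.45% were lower by 1.5-fold or more. Vegfa, the angiogenic growth factor gene, differed by 0.11, the glucose transporter gene Slc2a1 by 0.25 and Egln3 by -0.08. Pdk1 was under the filter in WT, at 4.57 against 4.81 in KO, which is at least 1.10-fold higher by the same rule. Hilpda at -0.22 lay inside the span of the list, whose lower end was Adm at -0.94. The next lowest was Pfkfb3 at -0.25, named after its value was seen. With Adm under the filter in KO, the span is no measure of spread at the brightness of Hilpda.

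**Figure D4:**
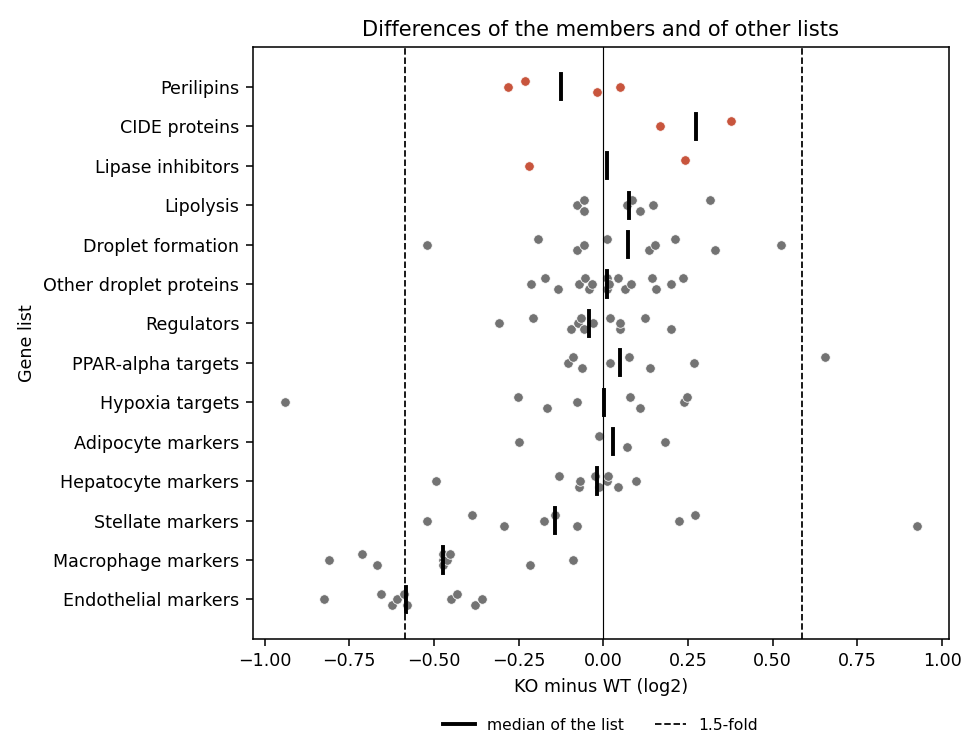
Difference between the arrays (KO minus WT, log2, horizontal axis) for each compared gene of 14 lists (rows), members in red and other lists in grey, with list medians as black bars and 1.5-fold as dashed lines. The droplet, lipolysis and regulator lists sit around 0, whereas all 10 macrophage and all 10 endothelial markers lie left of 0. Of the member rows, the CIDE genes lie right of 0, with a median of 0.27. The perilipins have a median of -0.13 and the lipase inhibitors of 0.01.

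Markers of other liver cells also differed between the arrays. Macrophage markers were below 0 in 10 of 10 genes, with a median of -0.47, 3 past 1.5-fold and a summed linear level of 1999.6 in WT and 1367 in KO. Adgre1, Clec4f, Vsig4 and Cd68 differed by -0.67, -0.47, -0.71 and -0.47, and C1qb, also past 1.5-fold, by -0.81. Endothelial markers were below 0 in 10 of 10, with a median of -0.58, 5 past 1.5-fold and a summed level of 2836 in WT and 1945 in KO. Lyve1, Stab2, Stab1 and Pecam1 differed by -0.83, -0.45, -0.38 and -0.36, and Cdh5, Tek, Oit3 and Clec4g, also past 1.5-fold, by -0.61, -0.66, -0.62 and -0.59. No gene of either list was under the filter in both arrays. Of all genes compared, 2.45% were lower by 1.5-fold or more and 44.3% lay above 0. Both lists were chosen with earlier results of these data known.

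Stellate cell markers were mixed, with 6 of 9 below 0, a median of -0.14 and a summed level of 2063 in WT and 1859 in KO. Summed levels weigh the brightest genes of a list most. Here that was Dcn, named after its value was seen, at 10.13 in WT and 9.99 in KO. Lrat, Des, Pdgfrb and Reln differed by -0.52, 0.93, -0.29 and -0.17, with Des under the filter in WT and barely at it in KO. Des was the list's gene past 1.5-fold, as were 1.47% of all genes compared in that direction. It is at least 1.001-fold higher when the filter stands in for the WT value. Hepatocyte markers had a median of -0.02 and 0 of 10 past 1.5-fold, with 4 above 0 and 6 below 0. Their differences ran from -0.49 to 0.10. The lowest was that of Serpina1e, named after its value was seen, at 10.26 in WT and 9.77 in KO. Ttr, Apoa1 and Ahsg differed by 0.01, 0.01 and -0.07, and the summed level was 47744 in WT and 47089.7 in KO. In pooled tissue RNA, fewer cells of a type and less RNA per cell cannot be told apart. The part that cell composition has in the differences of Plin4, Plin5, Hilpda and the positive members was not tested.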

How the data were processed

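Liver RNA of 2 pools was hybridised to 1 Affymetrix array per genotype from 100 ng RNA, per the labels' protocols. The deposited values are log2 RMA intensities per probe set, made by the authors with RMA in Affymetrix Expression Console 1.3.0, per the submitters' processing notes. RMA equalises the arrays' distributions and compresses differences of dim probe sets. The annotation build was not given in the sources used here.

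Of 41345 probe sets, 23521 had 1 gene symbol, 1814 several and 16010 none in the platform annotation. Gene values are means over probe sets with 1 symbol. Genes were compared where the higher array reached 4.68. With 1 array per group there was no test and no p-value; differences were counted at 1.5-fold. The number of arrays limits precision. All 10 members matched the RefSeq table by gene identifier. The counting step was tested on simulated data. The members and lists (lipolysis, droplet formation, other droplet proteins, regulators, PPAR-alpha and hypoxia targets, cell markers) were chosen with earlier results of these data known. Named genes were the members, Iah1, the first 4 genes of each list and any list gene past 1.5-fold. Lrg1, Hdgfl2, Fem1a, Uhrf1, Ptprs, Car3, Cyp2e1, Fabp4, Ces1d, Dcn, Serpina1e, Pfkfb3, Tmem159 and Mogat1 were named outside that rule after their values were seen. Promoter sequences are RefSeq's on GRCm38.p6. Python 3.11.15, pandas 2.3.3 and statsmodels 0.14.6 were used.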

Additional observations from a re-analysis of the deposited data

How the results depend on the processing

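Alternatives were the brightest or the median probe set of a gene, repeated quantile normalization, subtraction of the median difference, a loess fit (span 0.4), thresholds of 0.32 on the log2 scale and of 2-fold, no filter, and a filter at the 75th percentile. The member count at the threshold changed only at 0.32, where 1 member (Cidea) was higher. G0s2 moved to 0.51 with its brightest probe set. Plin3 changed sign under all 3 rescalings. The other members kept their sign, with ranges of -0.28 to -0.24 for Plin4, -0.23 to -0.19 for Plin5, -0.22 to -0.18 for Hilpda, 0.38 to 0.42 for Cidea and 0.17 to 0.19 for Cidec. Without a filter Plin1 entered, still under 1.5-fold; with the stricter filter 7 members remained in the comparison. The total of genes past the threshold was 435, and 1885 at the threshold of 0.32, 49 at 2-fold, 1148 without a filter and 79 with the stricter filter; the share of these that was higher went from 37.5% to 49.8% without a filter and to 22.8% with the stricter filter. No paired analysis was possible because each genotype had 1 array.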

Other observations

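In the stretch of chromosome 17 that holds Plin4, Plin5 and Plin3, other genes had larger differences than the perilipins, in both directions. Those not given above are named here after their values were seen. Fem1a, which encodes a substrate receptor of a ubiquitin ligase, was at 5.70 in WT and 6.35 in KO, 1.57-fold higher. It was the gene past 1.5-fold among the 13 others compared, and 1.47% of all genes compared were higher at that fold. Fem1a is in the second dimmest group of genes, whose differences had a standard deviation of 0.28. Uhrf1, which encodes a factor that maintains DNA methylation, was at 4.60 in WT, under the filter, and at 5.17 in KO. Ptprs was at 5.02 in WT and at 4.65 in KO, under the filter. Its difference of -0.37 has the sign of those of Plin4 and Plin5.

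In the lists of lipolysis, droplet formation and other droplet proteins, the widest differences among genes that passed the filter were those of Tmem159 and Mogat1, likewise named after their values were seen. Tmem159, which encodes a partner of seipin, was at 5.49 in WT and 4.97 in KO, differing by -0.52. Mogat1, a monoacylglycerol acyltransferase gene, was at 4.83 in WT and 5.35 in KO, differing by 0.52. Both were dim, in the group of genes whose differences had a standard deviation of 0.36.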
